A study of Homo sapiens with 6 samples.

Results

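The genes described here encode the upstream tier of the Hippo pathway: the MST kinases and their partners, the membrane inputs that recruit them, the TAOK and MAP4K kinases, the striatin phosphatase complex (STRIPAK) and the RAP2 GTPases. A list of 33 such genes was taken by symbol from the 60676 gene IDs in the count tables, and all 33 were found and were abundant enough to test among 15577 tested genes. The cells were HEK293A, a flat-growing subclone of the HEK293 kidney line; the labels name no genetic change in either group. They were collected after 2 h with DMSO vehicle (3 libraries) or with 20 nM VT01454 (3 libraries), a compound known here only by its code name. The title concerns control of Hippo signalling by PITP, proteins that carry phosphoinositides between membranes. The comparison asks whether transcripts of the pathway's own upstream regulators differed after a short treatment. Transcripts were measured, not kinase activity or phosphorylation.

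In the Hippo cascade the MST kinases, held by SAV1, activate the LATS kinases together with MOB1, and LATS in turn keeps the co-activators YAP and TAZ out of the nucleus. TAOK kinases act upstream of MST, and the MAP4K kinases act on LATS in parallel to MST. STRIPAK brings the phosphatase PP2A to the MST and MAP4K kinases and so restrains them. RAP2 GTPases bind MAP4K4, MINK1 and TNIK and are known for relaying matrix stiffness, downstream of phosphoinositide signals, to this cascade.

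Libraries held 19126039 to 28880374 counts, so that a single count corresponded to 0.0351 to 0.0522 CPM, the unit used here for counts relative to library size. The labelled identity was checked against marker genes: the keratin gene KRT8 averaged 963 CPM in vehicle and the neurofilament gene NEFL, long known in this line, 676 CPM, while the kidney lineage factors PAX2, PAX8 and LHX1 lay at 0.518, 0.286 and 0.0684 CPM. Leukocyte markers PTPRC and CD3E had 0 counts in every library. The 5 squamous and cervical markers summed to 0.0402 to 0.531 CPM per library. The vehicle libraries differed from each other in a way that followed transcript GC content: across tested genes, deviations from the group mean correlated with it at 0.15, 0.19 and −0.31 in vehicle libraries 1, 2 and 3, against −0.011 to 0.018 in the compound libraries.

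Only STRN3 and TAOK2 passed the test after 2 h with the compound, in opposite directions. STRN3, a striatin scaffold of STRIPAK, rose 1.299-fold, and TAOK2, a kinase upstream of MST, fell by 0.39 on the log2 scale. The other 31 genes stayed above the threshold, an adjusted p of 0.05 in edgeR's quasi-likelihood test with Benjamini-Hochberg adjustment over all tested genes. In such bulk samples, fewer cells expressing a gene and less of its RNA per cell cannot be told apart. These 2 calls of 33 stand beside 1.89% of all tested genes called, 1.27% higher and 0.616% lower. An unadjusted p below 0.05 was seen for 6 of the 33, where 14.4% of all tested genes had one.

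Precision was sufficient to bound most of the remaining genes. The 95% interval of the fold change lay within 1.5-fold in either direction for 32 of 33 genes, and within 2-fold for all 33. The exception at 1.5-fold was MAP4K1, counted 11 to 29 times per library. The median absolute log2 fold change was 0.11 in the list and 0.11 over all tested genes. The signed median was 0.092 in the list against −0.0073 over all tested genes, and 26 of 33 genes stood above 0 (78.8%, against 48.4% of all tested genes). In 11 genes the 3 compound libraries lay wholly above (9 genes) or wholly below (2 genes) the 3 vehicle libraries, where 21.1% of all tested genes had groups that did not overlap.

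**Figure D1:**
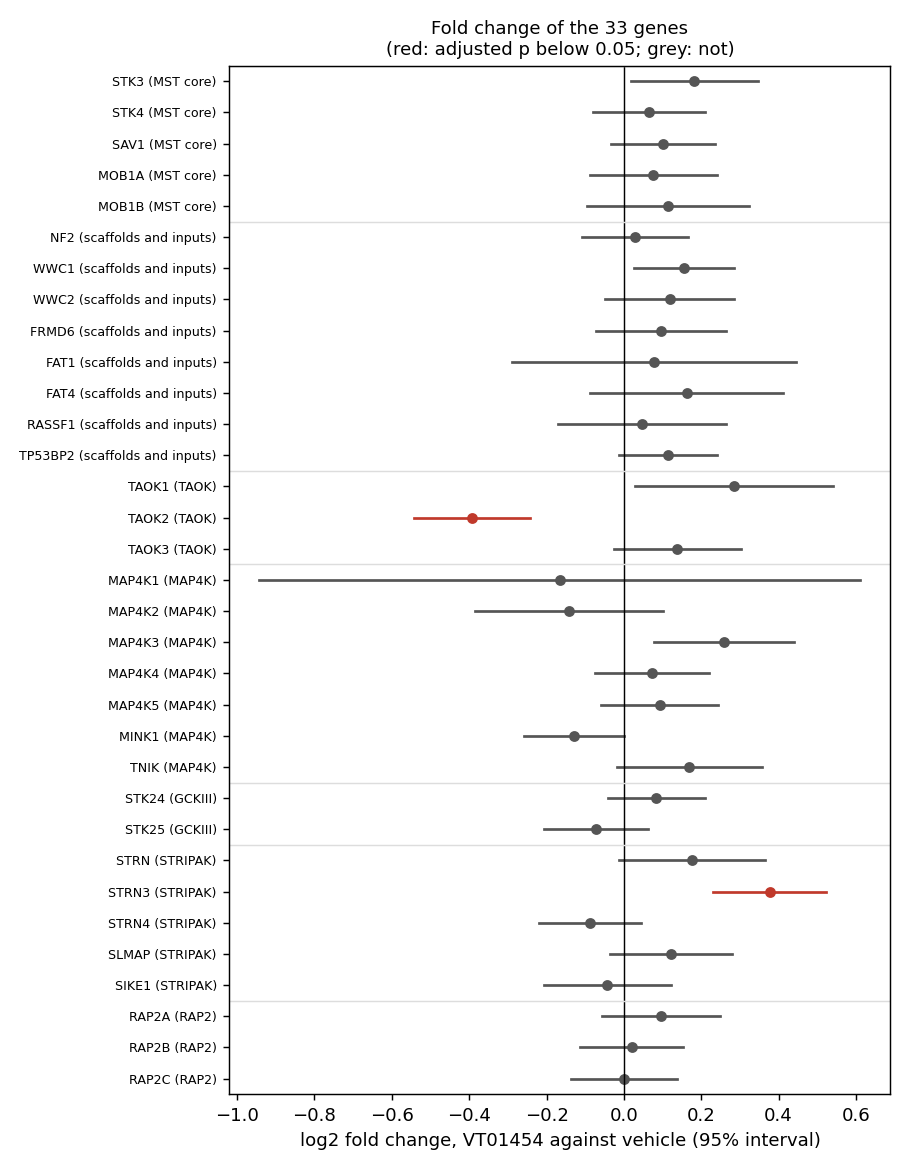
Log2 fold change of each of the 33 genes (x axis, compound against vehicle) with its 95% interval, grouped by role (y axis); red marks an adjusted p below 0.05. STRN3 at 0.38 and TAOK2 at −0.39 are the 2 red points, and MAP4K1 has the widest interval.

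Levels set against each other per kilobase of exonic length (CPM per kilobase, vehicle mean) spanned a wide range. MOB1A, an adaptor that activates LATS, was highest at 32.6 ± 3.84 (SD, n = 3) and exceeded the next gene, STK25, in every vehicle library. STK25 (20.0 ± 1.37), STRN4 (18.9 ± 1.15), TP53BP2 (18.9 ± 0.561) and SIKE1 (17.3 ± 1.91) followed and overlapped their neighbours in that order. At the low end MAP4K2 stood at 1.69 ± 0.139 and MAP4K1, a kinase known from blood cells, at 0.227 ± 0.0700. Within this order only 5 neighbouring pairs were separated in all vehicle libraries: MOB1A from STK25, SAV1 from MINK1, FRMD6 from STK3, TAOK3 from MAP4K2, and MAP4K2 from MAP4K1.

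**Figure D2:**
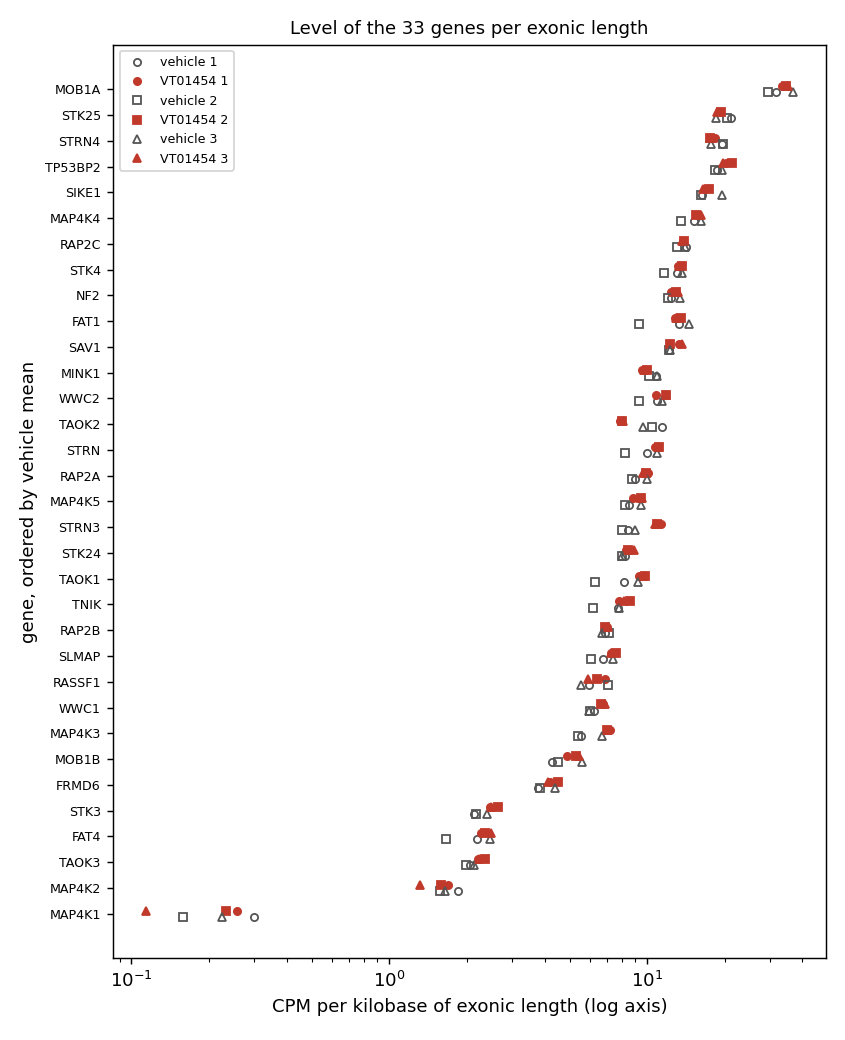
Level of each gene in each library as CPM per kilobase of exonic length (log x axis), ordered by the vehicle mean (y axis); open grey symbols are vehicle and filled red symbols compound libraries. MOB1A lies highest and MAP4K1 lowest, and most neighbours overlap.

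Among the STRIPAK genes, STRN3 (ENSG00000196792, chromosome 14, 30893799 to 31026401, minus strand) was the one that changed. It was at 41.8, 39.7 and 44.5 CPM in the vehicle libraries and at 56.2, 54.3 and 53.4 CPM in the compound libraries. Every compound library was above every vehicle library, by more than the spread within either group. The log2 fold change was 0.38 ± 0.07 (SE; 95% interval 0.23 to 0.52; adjusted p = 0.0114, edgeR quasi-likelihood test). The other striatins went different ways without passing: STRN had a log2 fold change of 0.18 ± 0.09 (adjusted p = 0.384) and STRN4 one of −0.088 ± 0.06 (adjusted p = 0.540). STRN was at 83.5, 68.4 and 90.8 CPM in vehicle and at 89.8, 92.7 and 92.3 CPM with the compound, so that vehicle library 3 lay within the compound range and libraries 1 and 2 below it. SLMAP, which carries the phosphorylated MST kinase to the complex, stood at 0.12 ± 0.07 and SIKE1, an adaptor of SLMAP, at −0.043 ± 0.08 (adjusted p = 0.471 and 0.830).

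Expressed as shares of the striatin family's summed level per kilobase, STRN3 held 22.2%, 22.3% and 23.9% in the vehicle libraries and 28.1%, 27.6% and 27.3% in the compound libraries. STRN4 held 51.1 ± 3.94% in vehicle and 44.8 ± 0.472% with the compound (SD, n = 3 each), also without overlap. The STRN share overlapped, at 26.1 ± 3.13% and 27.6 ± 0.805%. The family's sum was 37.1 ± 1.06 and 39.8 ± 0.497 CPM per kilobase. A shift in the share of one striatin moves the shares of the others by construction, and the difference between paralogs was not tested. These shares were not adjusted for transcript GC content, along which the vehicle libraries differed. That content was 40.7% for STRN3, 37.8% for STRN and 63.9% for STRN4.

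The upstream sequences of STRN3 and its closest paralog by level, STRN, are given with that of TAOK1, since the 2 called genes belong to the striatin and TAOK families. They come from RefSeq promoter windows (GRCh38.p14), which were found for 30 of the 33 genes. Bases downstream of the GENCODE 29 gene start were removed, and TAOK2 is not printed because that left only 23 bases of its window. STRN3 covers chr14:31026402-31026629 (minus strand, 228 bases), STRN chr2:36966537-36966786 (minus strand) and TAOK1 chr17:29390113-29390362 (plus strand). Capitals mark the letters GGGCGG on either strand, the core of SP1 sites, with overlapping matches run together.
STRN3: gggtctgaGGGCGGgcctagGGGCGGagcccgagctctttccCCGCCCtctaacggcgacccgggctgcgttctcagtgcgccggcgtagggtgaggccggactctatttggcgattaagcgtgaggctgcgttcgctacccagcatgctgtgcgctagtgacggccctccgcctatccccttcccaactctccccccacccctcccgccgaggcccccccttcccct
STRN: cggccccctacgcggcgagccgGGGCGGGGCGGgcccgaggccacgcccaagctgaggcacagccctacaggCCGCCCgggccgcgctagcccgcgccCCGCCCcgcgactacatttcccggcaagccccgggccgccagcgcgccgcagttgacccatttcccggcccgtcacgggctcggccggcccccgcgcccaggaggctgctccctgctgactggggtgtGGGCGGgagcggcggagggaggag
TAOK1: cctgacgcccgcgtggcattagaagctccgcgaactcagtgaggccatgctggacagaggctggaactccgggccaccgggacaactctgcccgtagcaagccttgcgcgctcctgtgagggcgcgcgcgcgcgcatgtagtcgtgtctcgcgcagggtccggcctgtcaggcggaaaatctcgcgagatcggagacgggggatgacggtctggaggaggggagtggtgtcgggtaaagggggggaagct

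These letters occurred 3 times in the STRN3 window, 5 times in that of STRN and 0 times in that of TAOK1. Over windows of 250 bases before the RefSeq start, 21 of the 30 matched genes held GGGCGG (70.0%), against 42.3% of 27305 promoters in the table, and their median GC content was 71.2% against 58.0%. The TEAD core GGAATG was in 3 of 30 windows (RASSF1, SLMAP and WWC2), against 11.9% of all promoters. The EGR letters GCGGGGGCG, which can share bases with GGGCGG, were in 4 of 30 (MAP4K2, RAP2A, STK24 and TAOK2, 13.3% against 4.68%). The ETS core CCGGAAG was in 3 of 30 (STK4, STK24 and STK25), against 8.82%. TGANTCA, the AP-1 letters, was in 1 of 30 (MOB1B, against 6.60%) and TGACGTCA, the CRE letters, in 1 of 30 (FAT1, against 1.77%). Both strands were searched for every motif. Such matches describe letters in these windows and no binding.

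TAOK2 (ENSG00000149930, chromosome 16, 29973641 to 29992261, plus strand) was the gene that fell. It was at 103, 94.2 and 87.3 CPM in the vehicle libraries and at 71.3, 72.3 and 73.1 CPM in the compound libraries. All compound libraries were below all vehicle libraries. The log2 fold change was −0.39 ± 0.07 (SE; 95% interval −0.54 to −0.24; adjusted p = 0.0102, edgeR quasi-likelihood test). TAOK1, the related kinase, was at 138, 107 and 157 CPM in vehicle and at 158, 167 and 165 CPM with the compound. Its groups did not overlap either, but vehicle library 3 lay just below the lowest compound library, and the log2 fold change of 0.28 ± 0.11 did not pass (95% interval 0.028 to 0.54, adjusted p = 0.298). TAOK3 went from 21.7 ± 0.733 to 23.9 ± 0.807 CPM (0.14 ± 0.08, adjusted p = 0.435).

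In the TAOK family TAOK2 held the largest share of the summed level per kilobase in every vehicle library, at 52.8%, 55.7% and 45.9%. With the compound its share was 40.6%, 39.6% and 40.3%, and TAOK1 was the larger at 48.1%, 48.7% and 48.5%. Which of them was larger depends on the division by exonic length, 16980 bases for TAOK1 and 9058 for TAOK2 over all annotated exons. In CPM, without that division, TAOK1 was above TAOK2 in every library of both groups. The family's sum was 20.4 ± 1.53 CPM per kilobase in vehicle and 19.9 ± 0.390 with the compound, a difference smaller than the spread between vehicle libraries. Vehicle library 3 had the TAOK1 and TAOK2 shares nearest to those of the compound libraries. The shares were not adjusted for transcript GC content, which was 39.5% for TAOK1 and 62.5% for TAOK2. In a fit adjusted for GC content and exonic length, the log2 fold change was 0.17 for TAOK1 and −0.38 for TAOK2. The difference between paralogs was not tested.

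**Figure D3:**
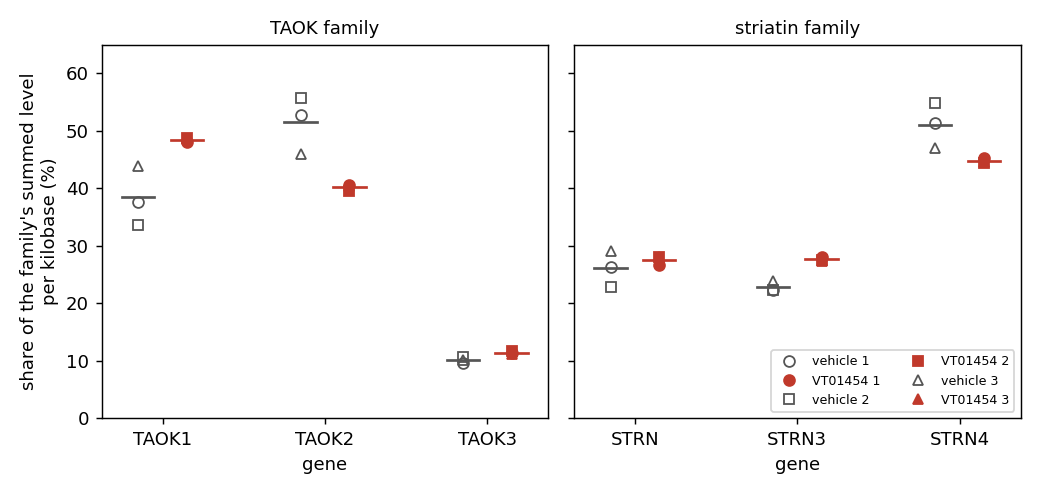
Share of each paralog in the summed level per kilobase of the TAOK family (left) and of the striatin family (right) by library (y axis, %); horizontal bars are group means over 3 libraries. TAOK2 lies at 45.9% to 55.7% in vehicle and 39.6% to 40.6% with the compound, and STRN3 at 22.2% to 23.9% and 27.3% to 28.1%. The shares are not adjusted for transcript GC content.

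None of the 5 genes of the MST core passed, and all 5 log2 fold changes were above 0, with a median of 0.10. With offsets for GC content and exonic length in the fit, 2 of the 5 (STK3 and SAV1) were above 0 and the median was −7.13e-04. STK3, which encodes MST2, had the smallest p of the group. It was at 26.7, 27.2 and 30.2 CPM in vehicle and at 31.1, 33.2 and 31.4 CPM with the compound. The compound libraries were higher by a small margin over vehicle library 3, and the log2 fold change was 0.18 ± 0.08 (95% interval 0.019 to 0.35, adjusted p = 0.294). STK4, which encodes MST1, stood at 0.065 ± 0.07 (adjusted p = 0.691). Its share of the pair's level per kilobase was 85.2 ± 0.855% in vehicle and 84.1 ± 0.268% with the compound, without overlap. That share was not adjusted for transcript GC content (43.4% for STK4 and 37.4% for STK3). SAV1, the MST scaffold, went from 68.5 ± 0.521 to 73.5 ± 3.84 CPM (0.10 ± 0.06, adjusted p = 0.486). MOB1A and MOB1B were at 0.076 ± 0.08 and 0.11 ± 0.10 (adjusted p = 0.680 and 0.619), and MOB1A held 87.2 ± 0.813% of the MOB1 level in vehicle and 86.9 ± 0.339% with the compound.

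The 8 membrane inputs and scaffolds likewise all lay above 0 (median 0.10) with none past the test, and 7 of 8 lay above 0 with the offsets (median 0.066). WWC1, which encodes the KIBRA scaffold, had the smallest p of these. It was at 62.5, 60.7 and 59.8 CPM in vehicle and at 68.0, 66.9 and 69.0 CPM with the compound. The groups did not overlap and the log2 fold change was 0.16 ± 0.06 (95% interval 0.027 to 0.28, adjusted p = 0.258). NF2, whose product merlin recruits LATS to the membrane, stood at 0.028 ± 0.06 (adjusted p = 0.867), with an interval from −0.11 to 0.17. WWC2 and the FERM protein gene FRMD6 stood at 0.12 ± 0.08 and 0.095 ± 0.08 (adjusted p = 0.509 and 0.605).

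The protocadherin gene FAT1 showed the largest spread of the abundant genes, at 216, 150 and 236 CPM in vehicle and 207, 219 and 210 CPM with the compound. Vehicle library 2 was the low one, and the log2 fold change of 0.078 ± 0.15 had an interval from −0.29 to 0.45 (adjusted p = 0.849). FAT4, a related protocadherin, stood at 0.16 ± 0.11 (adjusted p = 0.545). RASSF1, which binds MST kinases and whose isoforms gene counts cannot separate, stood at 0.048 ± 0.10 (adjusted p = 0.854). TP53BP2, which encodes the p53- and phosphatase-binding protein ASPP2, went from 113 ± 3.36 to 122 ± 5.05 CPM (0.11 ± 0.06, adjusted p = 0.403).

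Of the 7 MAP4K genes none passed, and 4 were above 0 (3 with the offsets). MAP4K3, linked to amino acid sensing as well as to LATS, had the smallest p. It was at 33.7, 32.7 and 40.5 CPM in vehicle and at 43.4, 42.4 and 42.4 CPM with the compound. All compound libraries were above vehicle, vehicle library 3 being the nearest, and the log2 fold change was 0.26 ± 0.08 (95% interval 0.078 to 0.44, adjusted p = 0.168). MINK1, a RAP2 effector, was lower in every compound library: 84.9, 79.7 and 85.3 CPM in vehicle against 74.6, 78.3 and 75.9 CPM (−0.13 ± 0.06, adjusted p = 0.353). Its fellow RAP2 effectors TNIK and MAP4K4 stood at 0.17 ± 0.09 and 0.072 ± 0.07 (adjusted p = 0.40 and 0.662). MAP4K4 was the most abundant of the 7, with 30.3 ± 0.405% of their summed level per kilobase in vehicle and 30.5 ± 0.798% with the compound. The share of MAP4K3 was 11.9 ± 0.752% and 13.6 ± 0.396%, and that of MINK1 21.6 ± 0.967% and 18.8 ± 0.243%, both without overlap. These shares were not adjusted for transcript GC content, which was 39.7% for MAP4K3 and 61.0% for MINK1. MAP4K5, MAP4K2 and MAP4K1 stood at 0.092 ± 0.07, −0.14 ± 0.11 and −0.17 ± 0.36 (adjusted p = 0.578, 0.595 and 0.861).

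The STRIPAK-associated kinases STK24 and STK25 did not pass. STK24 was at 99.2, 96.2 and 96.1 CPM in vehicle and at 99.8, 102 and 107 CPM with the compound. The groups were adjacent and the log2 fold change was 0.083 ± 0.06 (95% interval −0.042 to 0.21, adjusted p = 0.540). In GENCODE 29, 63.2% of the exonic bases of STK24 are shared with FARP1 on the opposite strand, so its counts depend on a strand setting, which is not given in the sources used here. STK25 stood at −0.072 ± 0.06 (adjusted p = 0.631) and shares 14.4% of its exonic bases with FARP2. STK24 held 28.8 ± 1.19% of the pair's level per kilobase in vehicle and 31.0 ± 1.11% with the compound, and the groups did not overlap. That share was not adjusted for transcript GC content (50.8% for STK24 and 58.1% for STK25). WWC2 shares 25.9% with CLDN22, RASSF1 17.9% with RASSF1-AS1 and SAV1 14.9% with ATL1, all on the opposite strand, whereas STRN3 shares 3.08% with COCH and TAOK2 none.

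None of the 3 RAP2 genes passed, and their median log2 fold change was 0.021. All 3 were above 0 in this fit, but only RAP2A with library size alone or with the offsets. RAP2A was at 49.8, 48.6 and 55.8 CPM in vehicle and at 56.4, 54.9 and 53.8 CPM with the compound. The groups overlapped through vehicle library 3, and the log2 fold change was 0.096 ± 0.07 (95% interval −0.056 to 0.25, adjusted p = 0.564). RAP2B and RAP2C stood at 0.021 ± 0.06 and 9.47e-04 ± 0.06 (adjusted p = 0.903 and 0.995), with intervals from −0.11 to 0.15 and −0.14 to 0.14. RAP2C held 46.0 ± 1.04% of the family's level per kilobase in vehicle and 45.0 ± 0.473% with the compound.

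**Figure D4:**
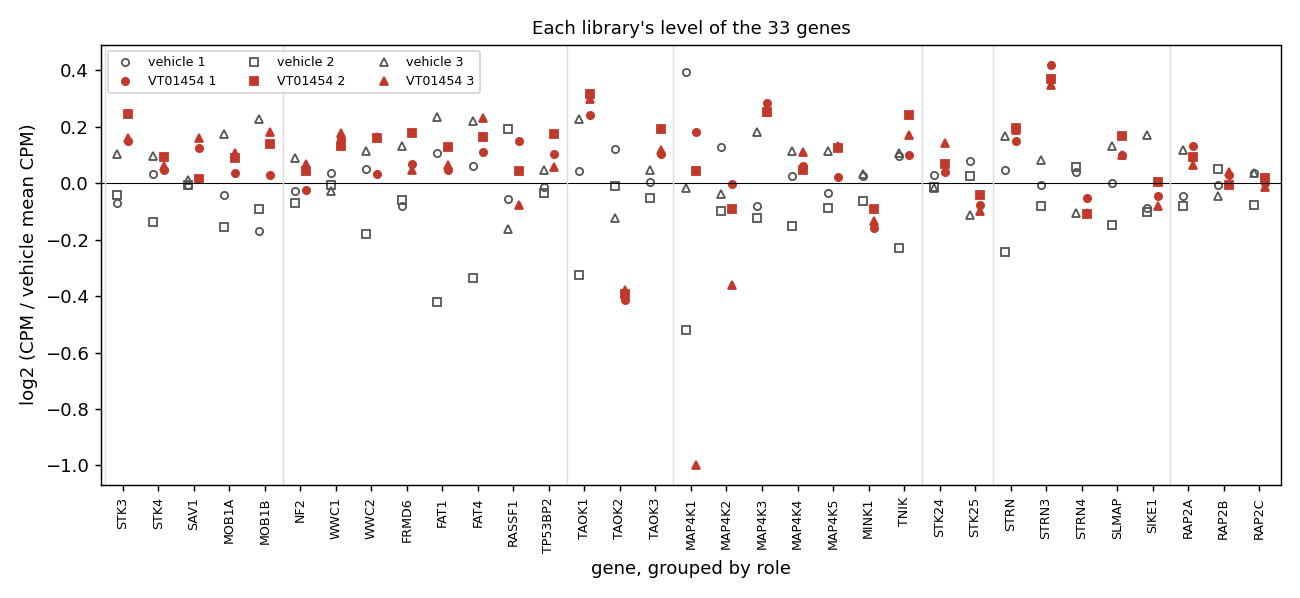
Level of each of the 33 genes in each library as log2 of CPM over the vehicle mean CPM (y axis), grouped by role (x axis); open grey symbols are vehicle and filled red symbols compound libraries. The compound libraries cluster tightly for most genes, STRN3 and TAOK2 lie clear of vehicle, and vehicle library 2 is often the lowest vehicle library and vehicle library 3 the highest.

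The order of the vehicle libraries recurred across the list. Among the 3 vehicle libraries, library 2 was lowest for 22 of the 33 genes (66.7%, against 38.2% of all tested genes) and library 3 highest for 23 (69.7%, against 38.1%). Of the 23 genes with a transcript GC content below 50%, library 2 was lowest for 18 and library 3 highest for 21. Of these 23 genes 22 had a log2 fold change above 0, with a median of 0.11. Of the 10 genes at or above 50% GC, 4 were above 0, with a median of −0.080. Across the 33 genes the log2 fold change and GC content had a Pearson r of −0.63 and a Spearman rho of −0.51. This is a description over genes measured in the same 6 libraries. The same values were not computed for all tested genes of like GC content, so the pattern is not shown to be particular to this list.

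With offsets for GC content and exonic length in the fit, 18 of 33 genes were above 0 and the median was 0.017, against −0.0027 over all tested genes. Of the 23 GC-poor genes 14 were then above 0 (median 0.023), and r became −0.32 and rho −0.10. The offsets follow each library's deviation from the mean of all 6 libraries along GC content and length. They therefore take out any group difference that follows GC content, whatever its source, so that a weaker relation was built in. Both calls remained: STRN3 at 0.33 (adjusted p = 0.00150) and TAOK2 at −0.38 (adjusted p = 2.17e-04), where 4.3% of all tested genes were called. TAOK1 and MAP4K3 stood at 0.17 and 0.19 (adjusted p = 0.0629 and 0.0782).

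**Figure D5:**
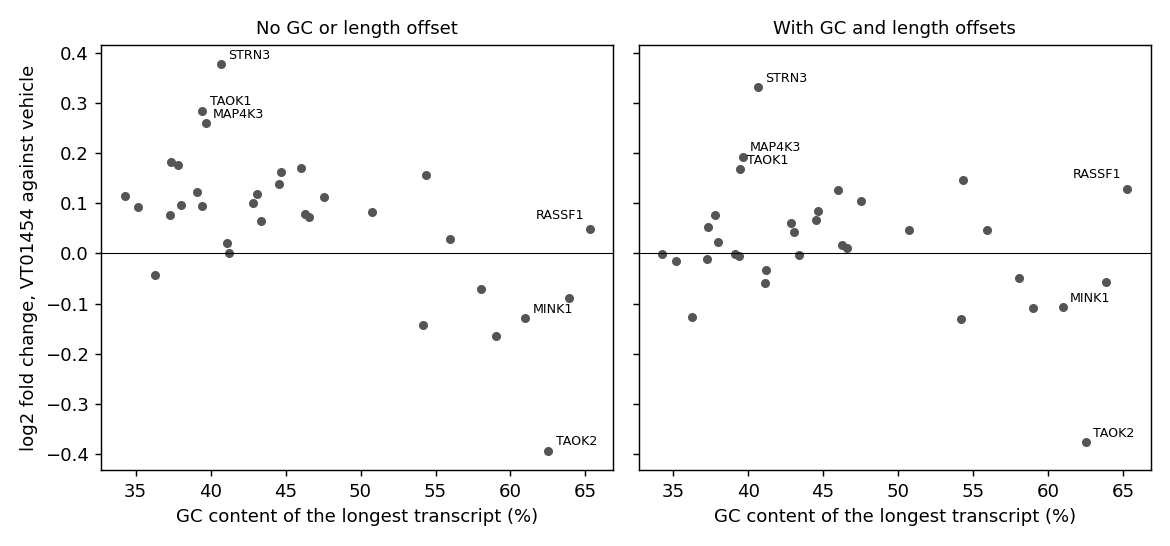
Log2 fold change of the 33 genes (y axis) against the GC content of each gene's longest transcript (x axis, %), without (left) and with (right) offsets for GC content and exonic length. The GC-poor genes lie mostly above 0 on the left and around 0 on the right, while STRN3 and TAOK2 stay at 0.33 and −0.38.

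How many of the 33 genes passed depended on which library was present. Without vehicle library 3, 8 were higher and 1 lower, where 11.4% of all tested genes were called. The 8 were STRN3, TAOK1, MAP4K3, STRN, STK3, MOB1B, SLMAP and MOB1A, with TAOK2 lower. MAP4K3 then had a log2 fold change of 0.36 (adjusted p = 0.00384) and TAOK1 one of 0.41 (adjusted p = 0.0241). Without vehicle library 2 only STRN3 and TAOK2 passed (adjusted p = 0.00438 and 0.00183, 2.6% of all tested genes called). Neither passed without vehicle library 1 (adjusted p = 0.101 and 0.0894, 0.584% called), nor without compound library 1, 2 or 3 (adjusted p from 0.0667 to 0.104 for STRN3 and 0.0906 to 0.102 for TAOK2, with 0.854%, 0.683% and 0.676% called). Their log2 fold changes over these 6 fits ran from 0.34 to 0.42 for STRN3 and from −0.45 to −0.33 for TAOK2. DESeq2 called the same 2 genes among 3.49% of its tested genes, and a fit with no count filter added TAOK1 and MAP4K3 as higher (adjusted p = 0.00189 and 0.0377, 2.29% called).

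Other genes of the pathway, in 4 lists, gave the surroundings of these values. None of the 12 tested further STRIPAK genes passed in either direction with edgeR, 0 passed with DESeq2, and 2 had an unadjusted p below 0.05 (median log2 fold change 0.020). Without vehicle library 3, where 11.4% of all tested genes were called, STK26 and CTTNBP2NL passed as higher (adjusted p = 0.0305 and 0.0351). Of 14 genes for LATS, YAP/TAZ, TEAD and angiomotins, 2 fell, where 0.616% of all tested genes were called lower. AMOTL2, an angiomotin scaffold, went from 116 to 37.4 CPM (−1.64 ± 0.07, adjusted p = 3.97e-08). LATS2, like LATS1 a kinase that the MST and MAP4K kinases act on, went from 22.3 to 16.3 CPM (−0.45 ± 0.09, adjusted p = 0.0255). The LATS2 call was lost without vehicle library 1 or any compound library (adjusted p up to 0.189). LATS1, named here after its values were seen, went the other way, from 90.3 to 103 CPM, with overlapping groups. It did not pass (0.19 ± 0.08, adjusted p = 0.294), but passed as higher without vehicle library 3 (0.28, adjusted p = 0.0115). Of 36 tested polarity and junction genes, AJUBA, a LIM protein that binds LATS, fell from 78.7 to 54.1 CPM (−0.54 ± 0.06, adjusted p = 4.63e-04) and passed without any single library.

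Of 17 tested RAP2 regulators, RAP1 genes and lipid enzymes, RASGEF1B, an exchange factor for RAP2, rose, where 1.27% of all tested genes were called higher. The values of RASGEF1B were as follows. It was at 8.21, 5.58 and 7.64 CPM in vehicle and at 10.4, 12.6 and 10.2 CPM with the compound. The groups did not overlap, and the log2 fold change was 0.62 ± 0.14 (adjusted p = 0.0499). That p lies next to the threshold: the call was lost with DESeq2 size factors (adjusted p = 0.0506), library size alone (0.0703), a filter at 1 CPM (0.0554) and limma-voom (0.0542), and without vehicle library 1 or 2 or any compound library (adjusted p up to 0.289). The RASGEF1B call was kept with DESeq2 (adjusted p = 0.00763), no count filter (1.57e-04), the offsets (0.0296) and a replicate block (0.0429). It was also kept without vehicle library 3 (0.0183). None of the other 16 passed in the edgeR fit reported here. RAPGEF2, an exchange factor for RAP proteins, is named here after its values were seen. In the edgeR fit it stood at 0.36 ± 0.09 and did not pass (adjusted p = 0.0706). It passed as higher with DESeq2 (0.36, adjusted p = 0.00784), with the offsets (0.31, adjusted p = 0.00398) and with no count filter (0.37, adjusted p = 4.85e-05). It also passed with a block for replicate number (0.37, adjusted p = 0.0262). The same held without vehicle library 2 (0.24, adjusted p = 0.0149) and without vehicle library 3 (0.41, adjusted p = 0.0192). In the other lists DESeq2 added RASSF3 as higher (0.28, adjusted p = 0.0319). It added CSNK1D and TEAD4 as lower (−0.24 and −0.26, adjusted p = 0.0286 and 0.0395). With no count filter, the list for LATS, YAP/TAZ, TEAD and angiomotins held 1 gene called higher (WWTR1) and 3 lower. The polarity and junction list then held 2 higher (WWC3 and RASSF3) and 3 lower. In the list of RAP2 regulators, SIPA1L2, SIPA1L3 and ARHGAP29 passed as higher too without vehicle library 3 (adjusted p = 0.0130, 0.0224 and 0.0258), beside RASGEF1B. That fit called 11.4% of all tested genes. It also called 3 higher and 3 lower in the list for LATS, YAP/TAZ, TEAD and angiomotins. In the polarity and junction list it called 5 higher and 3 lower.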

How the data were processed

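RNA was sequenced from 6 HEK293A samples, 3 per group. The authors deposited raw read counts per Ensembl gene, whole numbers with no normalization. Per the submitters' processing notes, HISAT2 2.2.1, HTSeq 0.9.1 and build hg38 were used. The strand setting is not given in the sources used here, nor is the annotation release. Separate cultures are not stated, and p-values then measure only how far these samples spread, which may be technical. Every pair of replicates differed by more than sampling noise (chi-square over its degrees of freedom at least 2.03).

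Symbols came from a table pairing 60357 of 60676 IDs, and coordinates (1-based), exonic length and GC content of the longest transcript from GENCODE 29, also on GRCh38. Genes were kept by filterByExpr, scaled by TMM and tested two-sided with edgeR 4.0.16 (quasi-likelihood, robust, R 4.3.3) over all 15577 genes, with Benjamini-Hochberg adjustment and a threshold of 0.05. CPM uses TMM-scaled library sizes, the standard error is the log2 fold change over the square root of F, and intervals are 95%. DESeq2 1.42.0 and limma-voom (limma 3.58.1) were alternatives. The fit was tested on simulated data.

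The members and lists were chosen with earlier results of these data known. All 33 genes are given. Those with values in every library are the called genes and the gene with the smallest p in each role group, by a fixed rule, while TAOK1, STRN, FAT1 and MINK1 were added after their values were seen. Genes of other lists are named when called, others as stated.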

Additional observations from a re-analysis of the deposited data

How the results depend on the processing

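Of 527 values of single genes of the list under the alternatives, 486 kept both direction and side of the threshold, 12 lost a call, 9 gained one and 20 changed sign, all in genes not called under either setting. With the offsets the log2 fold change became −0.0031 for STK4, −0.010 for MOB1A, −7.13e-04 for MOB1B, −0.014 for MAP4K5, −0.0041 for FRMD6, −6.80e-04 for SLMAP, −0.059 for RAP2B and −0.032 for RAP2C. With library size alone it became −0.0028 for RAP2B and −0.023 for RAP2C. When single libraries were left out it ranged from −0.0047 to 0.075 for NF2, −0.39 to 0.11 for MAP4K1, −0.092 to 0.21 for FAT1, −0.030 to 0.15 for RASSF1, −0.091 to 0.052 for SIKE1, −0.0035 to 0.047 for RAP2B and −0.034 to 0.020 for RAP2C. The 1 gene called higher became 3 with no count filter, 0 with a fold threshold of 1.2 and 0 at an adjusted p below 0.01, and ranged from 0 to 8 when single libraries were left out. The 1 called lower became 0 with either threshold and ranged from 0 to 1. Other pathway genes called higher, 1 in the report, were 3 with DESeq2, 5 with no filter, 4 with GC and length offsets, 2 with a replicate block, 0 with DESeq2 size factors, library size alone, a filter at 1 CPM, limma-voom and both thresholds, and 0 to 15 without single libraries. Those called lower, 3 in the report, were 5 with DESeq2, 6 with no filter, 5 with the offsets and 2 to 6 without single libraries. Over all genes, 294 calls became 713 with no filter, 69 with the fold threshold, 125 at 0.01, 670 with the offsets and 93 to 1806 without single libraries. The cause was not tested. Fits that leave a library out also had a smaller group, and the effect of that was not tested either.

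Same-numbered vehicle and compound libraries did not deviate together (correlations of −0.070, 0.028 and −0.014), so the numbers were not taken as pairs. With the replicate block 339 genes were called, and STRN3 and TAOK2 had adjusted p = 0.0107 and 0.00592. MAP4K1, at 11 to 29 counts, is limited by depth.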
